A study of Homo sapiens with 6 samples.

Results

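This account covers 10 genes of the YAP/TAZ pathway in 8505C, a cell line grown from an anaplastic thyroid carcinoma of human origin and established in culture. They are the coactivators YAP1 and WWTR1 (which encodes TAZ), their DNA-binding partner TEAD1, and 7 genes known as direct targets, CYR61, CTGF, ANKRD1, AMOTL2, AXL, LATS2 and AJUBA. The rows were taken by gene name from a deposited expression table, where 10 of 58735 named genes carry these names, and all 10 were among the 14280 genes tested. The HHEX shRNA group held 3 libraries of cells with a short hairpin RNA against HHEX, a homeobox transcription factor (genotype label HHEX KD). It was compared with 3 libraries of cells with a control hairpin, whose genotype label reads wild-type. Both groups were of the same cell line and labelled untreated, and the labels do not say whether a group is 1 clone or a pool of transduced cells. The series calls the 3 libraries of a group biological replicates, while the titles give 2 of the 3 the same first replicate number, so these may share a culture.

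The Hippo pathway is a kinase cascade in which the kinases MST1 and MST2 activate LATS1 and LATS2, and these phosphorylate YAP and TAZ, which are then held in the cytoplasm or degraded. When the cascade is off, YAP and TAZ enter the nucleus, bind TEAD factors and raise transcription of genes such as CYR61 and CTGF. Several targets feed back on the pathway, among them AMOTL2, which binds YAP, and LATS2 itself. The activity of YAP and TAZ is set largely by phosphorylation and location of the proteins, which a transcript count does not measure.

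HHEX itself goes against 1 label. In CPM, counts relative to the TMM-scaled library size, KD1 had 14.8, KD2 had 7.93 and KD3 had 7.12, against 12.0 to 12.8 CPM in the control libraries. HHEX was thus below every control in KD2 and KD3 and above every control in the library labelled KD1, and the names KD1, KD2 and KD3 stand here for labels only. The log2 fold change of HHEX was −0.33 (SE 0.28, edgeR adjusted p = 0.527), so that a difference by label is not shown to be one by HHEX level. It was −0.73 without KD1 (edgeR adjusted p = 0.33), −0.18 without KD2 (edgeR adjusted p = 0.859) and −0.11 without KD3 (edgeR adjusted p = 0.754). KD1 and KD2 resembled each other (Pearson r = 0.989 across genes) more than either resembled KD3 (0.955 and 0.956), and KD3 was closer to the controls (0.971 to 0.977). Log2 fold changes without KD1 and without KD3 are therefore plotted for all 10 genes and printed for those whose groups did not overlap. Total counts ran from 13333245 to 15144176 per library.

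The labelled cell type was checked with marker genes. Among thyroid genes, the transcription factor NKX2-1 ranged from 18.0 to 37.9 CPM in the KD libraries and from 26.7 to 50.5 CPM in the controls, and PAX8 from 2.57 to 3.59 CPM against 2.99 to 5.47 CPM. The differentiated thyroid genes TG, TSHR and SLC5A5 were each at or under 0.299 CPM in every library. The epithelial keratin KRT18 lay at 342 to 393 CPM in the KD libraries and 325 to 455 CPM in the controls, while CDH1 did not exceed 0.0747 CPM. KRT8 had 1015, 900 and 486 CPM in KD1 to KD3 against 617, 663 and 445 CPM in the controls (log2 fold change of 0.48 with SE 0.28, edgeR adjusted p = 0.349). EPCAM was low, with 0.202, 0.50 and 1.69 CPM in KD1 to KD3 against 1.49, 1.33 and 2.28 CPM in the controls (−1.09, SE 0.66, edgeR adjusted p = 0.371). Both genes overlapped between the groups, and KD1 and KD2 lay apart from KD3. Of markers of other cell types, 3 of 7 fibroblast, 1 of 5 leukocyte and 2 of 4 endothelial genes passed the filter on low counts. Their summed levels were 14.5 to 47.6 CPM against 43.7 to 55.8 CPM for fibroblasts, 3.03 to 4.25 CPM against 2.99 to 4.78 CPM for leukocytes, and 5.07 to 14.9 CPM against 14.97 to 16.2 CPM for endothelium. The lowest fibroblast, leukocyte and endothelial sums among the KD libraries were those of KD3. The fibroblast gene COL1A2 and the leukocyte gene LYZ were at or near 0 in every library, but other genes of these lists were detected. The fibroblast gene COL3A1 had 36.4, 40.8 and 9.94 CPM in KD1 to KD3 and 36.5 to 51.5 CPM in the controls. The endothelial gene CDH5 had 11.0, 9.93 and 2.61 CPM against 10.3 to 10.9 CPM. The leukocyte gene CD14 had 2.11 to 4.25 CPM against 2.76 to 4.71 CPM. The part of the summed levels in the results below was not tested.

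The promoters were searched for the letters that TEAD factors prefer. TEAD factors bind the letters GGAATG, read on either strand as GGAATG or CATTCC, and the window was the 250 bases before each RefSeq start (GRCh38.p14). Starts were matched for 8 of the 10 genes, all but CYR61 and TEAD1, with 12 starts in all. The letters occurred before 6 of the 12 starts, or 50%, which belong to 6 genes, and before 11.9% of the 35116 starts of all genes. Most of these genes were chosen as known targets, and a match is a description, not a binding site. The promoter of CTGF held 3 copies, at 169, 104 and 95 bases before the start, a number that 0.0826% of all starts reach. ANKRD1 held 2 copies (220 and 128 bases before the start) and YAP1 held 1 (162 bases before). AMOTL2, AXL and AJUBA each held 1 copy before their downstream start and none before the upstream one, and LATS2 and WWTR1 held none. The letters TGANTCA of AP-1, a factor that often binds beside TEAD, occurred before 1 of the 12 starts, that of ANKRD1, and before 6.57% of all starts.

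Sequences of 4 of these promoters are shown from RefSeq, 5′ to 3′ on the strand of the gene, without bases that GENCODE annotates as exon on that strand, and with the TEAD letters in capitals. CTGF has the most copies, ANKRD1 the next most, YAP1 is the coactivator itself, and AJUBA (upstream start) is the gene farthest below the controls. They lie at chr6:131951374-131951622 (CTGF, minus strand), chr10:90921277-90921337 (ANKRD1, minus strand), chr11:102110197-102110446 (YAP1, plus strand) and chr14:22982643-22982801 (AJUBA, minus strand). The nearer of the 2 copies of ANKRD1 lies in bases that are left out.
CTGF: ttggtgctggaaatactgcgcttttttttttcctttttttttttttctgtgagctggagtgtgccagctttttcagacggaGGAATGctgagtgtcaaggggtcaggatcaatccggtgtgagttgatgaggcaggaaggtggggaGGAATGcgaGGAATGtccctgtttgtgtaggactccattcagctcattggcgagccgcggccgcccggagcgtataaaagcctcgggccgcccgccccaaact
ANKRD1: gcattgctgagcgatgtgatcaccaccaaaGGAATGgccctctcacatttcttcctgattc
YAP1: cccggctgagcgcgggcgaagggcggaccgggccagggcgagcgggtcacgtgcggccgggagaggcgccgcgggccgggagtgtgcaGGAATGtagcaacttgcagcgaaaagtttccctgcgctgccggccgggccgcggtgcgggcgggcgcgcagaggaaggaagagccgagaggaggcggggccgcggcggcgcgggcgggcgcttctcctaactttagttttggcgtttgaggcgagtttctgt
AJUBA: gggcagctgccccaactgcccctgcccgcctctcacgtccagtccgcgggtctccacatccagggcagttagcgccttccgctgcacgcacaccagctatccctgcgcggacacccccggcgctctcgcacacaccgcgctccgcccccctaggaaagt

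Levels were compared between genes per kilobase, with CPM divided by the merged length of all exons that GENCODE annotates for the gene. The length of the transcripts in these cells was not measured, and ranks and shares per kilobase depend on the length used. AXL was the most abundant of the 10 genes, at 296 ± 14.1 CPM per kilobase in the KD libraries and 278 ± 17.8 CPM per kilobase in the controls (SD, n = 3 each, as for all means here). CYR61 followed at 254 ± 27.7 in the KD libraries and 171 ± 15.9 CPM per kilobase in the controls, and its range overlapped that of AXL in the KD libraries but not in the controls. CTGF came next at 109 ± 16.3 against 77.4 ± 1.97 CPM per kilobase. By the mean over all libraries AXL, CYR61 and CTGF ranked at 79, 122 and 329 among the 14280 tested genes. TEAD1 (39.6 ± 5.66 CPM per kilobase in the KD libraries, 34.7 ± 5.83 in the controls) and AMOTL2 (36.8 ± 3.68 against 29.7 ± 2.07) overlapped each other in both groups. YAP1 stood at 17.8 ± 3.37 against 17.5 ± 0.795 CPM per kilobase and WWTR1 at 13.6 ± 1.26 against 11.2 ± 0.613, and these genes overlapped in the KD libraries but not in the controls. The lowest levels were those of LATS2, at 7.82 ± 0.964 against 7.53 ± 1.09 CPM per kilobase, and of ANKRD1, at 4.07 ± 0.941 against 5.30 ± 1.15, which overlapped each other in the controls only. AJUBA had a different place in each group, with 19.8 ± 7.27 CPM per kilobase in the KD libraries, a range that overlapped that of YAP1, and 34.6 ± 5.20 in the controls, a range that overlapped that of TEAD1.

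**Figure D1:**
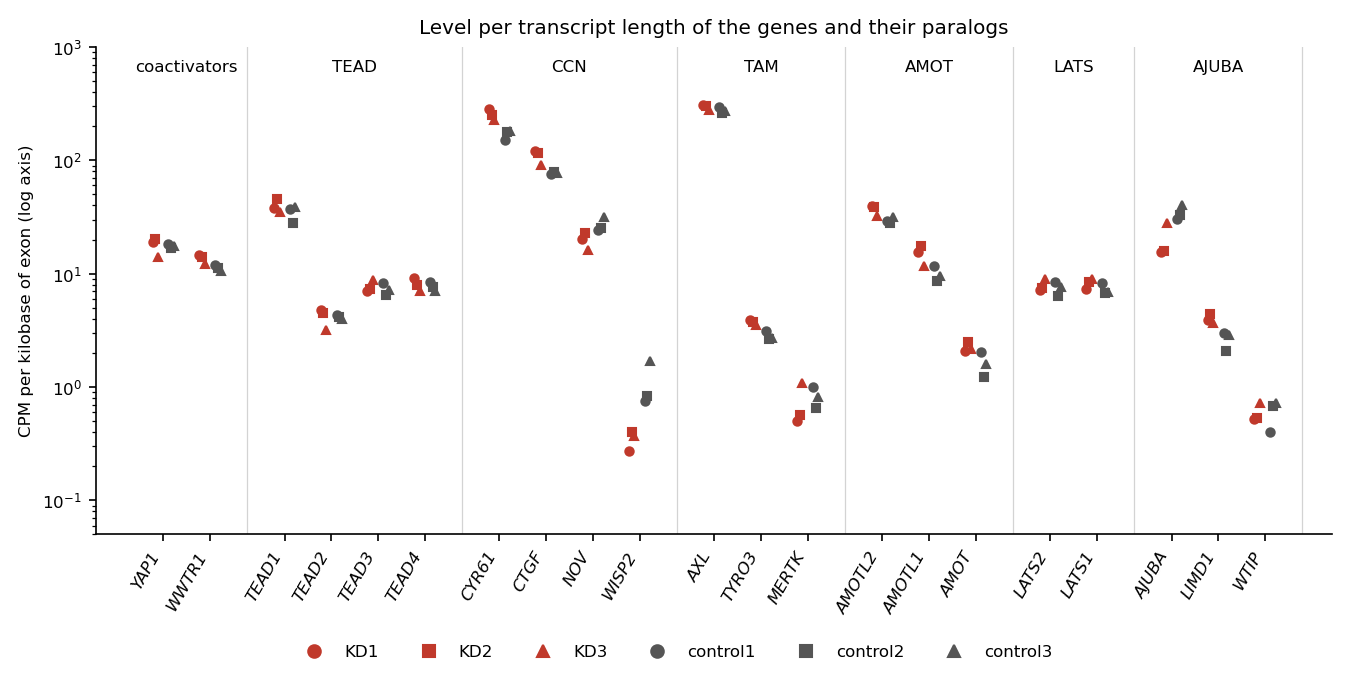
Level per length of annotated exon, in CPM per kilobase (log axis), of 9 of the 10 genes (all but ANKRD1) and of their paralogs. KD1 to KD3 are in red to the left of control1 to control3 in grey. AXL, CYR61 and CTGF lie above the other genes in every library, and AJUBA lies lower in each KD library than in each control.

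Across the groups, CYR61, CTGF, AMOTL2 and WWTR1 were higher in each KD library than in every control, and AJUBA was lower in each KD library than in every control. For the other 5 genes the groups overlapped. None of the differences passed edgeR's quasi-likelihood test with Benjamini-Hochberg adjustment over the 14280 tested genes. At an unadjusted p under 0.05 there were 3 of the 10 genes higher (CYR61, CTGF and AMOTL2) and 1 lower (AJUBA), and DESeq2 called CYR61, CTGF and AJUBA. A positive log2 fold change was found for 8 of the 10 genes and for 48.6% of all tested genes. Over all genes the same edgeR test called 0.182%, or 0.105% higher and 0.0770% lower. DESeq2 called 3.31% higher and 2.98% lower, and without a low-count filter edgeR called the same 3 of the 10 genes, beside 2.56% higher and 2.24% lower over all genes. In the fit with the filter, unadjusted edgeR p-values under 0.05 fell on 10.4% higher and 10.2% lower. Groups without overlap were found for 11.6% of the tested genes with the KD libraries higher, set beside 4 of the 10 genes, and for 13.3% with the KD libraries lower, set beside 1 of the 10. The exact two-sided permutation p was 0.1 for each of these 5 genes, the smallest that 3 against 3 libraries allow. Groups of 3 without overlap always give this value, so it adds no test, here or for the shares below. In such bulk samples fewer cells with a transcript and less transcript per cell cannot be told apart.

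**Figure D2:**
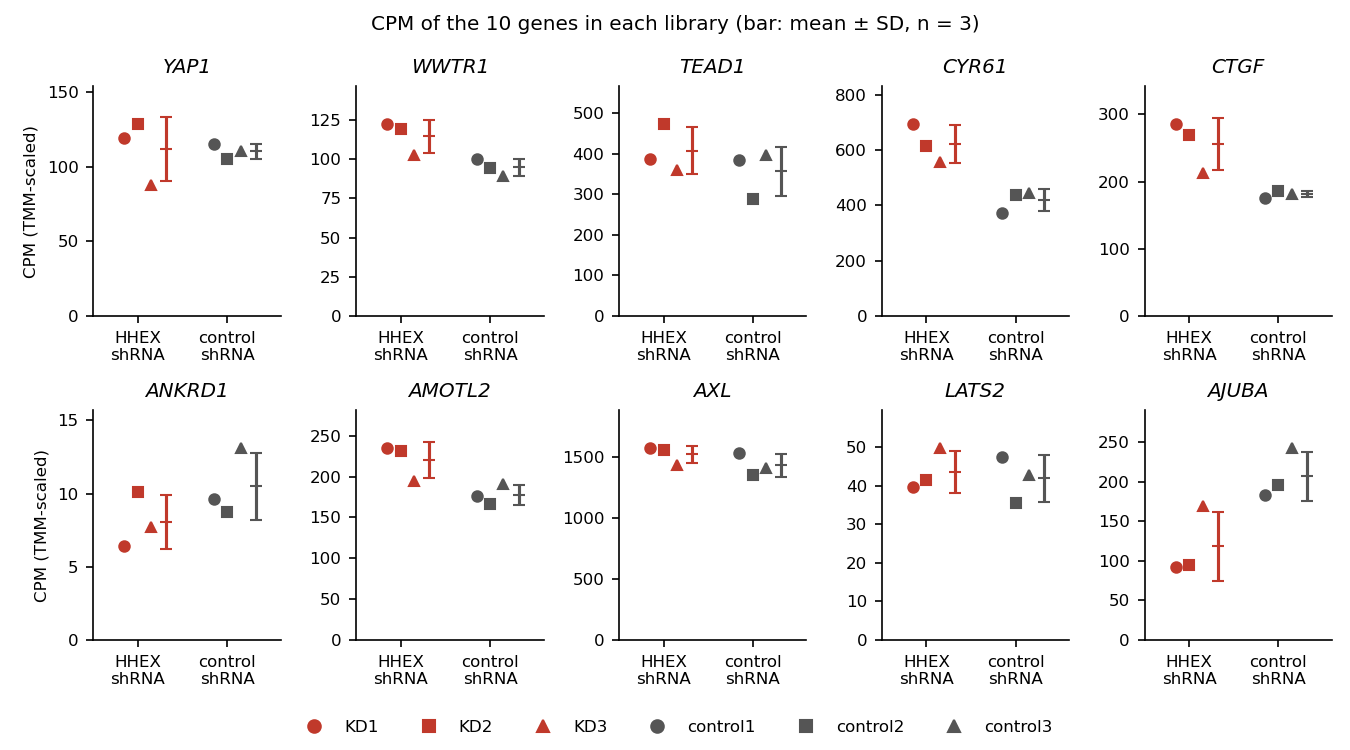
CPM of each of the 10 genes by library, HHEX shRNA libraries in red on the left and control shRNA libraries in grey on the right of each panel, with mean and SD (n = 3) beside the points. The points do not overlap for WWTR1, CYR61, CTGF, AMOTL2 and AJUBA, and KD3 (triangle) is the KD library nearest to the controls for each of these 5.

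Of the 2 coactivators, WWTR1 had groups without overlap and YAP1 did not, and neither passed the test. YAP1 (ENSG00000137693, chromosome 11, 102110461 to 102233423, plus strand) was measured at 119, 128 and 88.0 CPM in KD1 to KD3, against 115, 105 and 110 CPM in control1 to control3. KD1 and KD2 lay above the controls and KD3 below them. The log2 fold change was 0.02 (SE 0.15, 95% confidence interval −0.33 to 0.37, edgeR adjusted p = 0.953), and its sign turned without KD1 (−0.03). WWTR1 (ENSG00000018408, chromosome 3, 149517235 to 149736714, minus strand) had 122, 119 and 102 CPM in KD1 to KD3, against 99.8, 94.6 and 89.5 CPM in the controls. The lowest KD library was above the highest control by less than the range within either group. Its log2 fold change was 0.27 (SE 0.12, interval −0.00 to 0.55, edgeR adjusted p = 0.246), or 0.23 without KD1. It was 0.37 without KD3, where it passed (edgeR adjusted p = 0.0196), as did 31.6% of all tested genes. WWTR1 had more CPM than YAP1 in KD1 and KD3. Shares per kilobase thus depend on annotated exon length, 6296 bases for YAP1 and 8413 for WWTR1. YAP1 made up 56.6%, 59.1% and 53.5% of the summed level per kilobase for the coactivator pair in KD1 to KD3. In the controls it made up 60.7%, 59.8% and 62.2%. These shares did not overlap (exact two-sided permutation p = 0.1, the smallest possible).

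TEAD1 (ENSG00000187079, chromosome 11, 12674591 to 12944483, plus strand) encodes the TEAD factor that made up most of the TEAD transcripts. Its share of the summed level per kilobase of TEAD1 to TEAD4 was 64.2% to 69.9% in the KD libraries and 60.4% to 68.0% in the controls. TEAD1 was measured at 388, 473 and 361 CPM in KD1 to KD3, against 384, 288 and 398 CPM in the controls. The values overlapped, and control2 was the lowest of all 6 (log2 fold change of 0.19 with SE 0.17, interval −0.20 to 0.59, edgeR adjusted p = 0.549). TEAD2, TEAD3 and TEAD4 overlapped between the groups as well, in the KD libraries at 9.58 to 14.4, 21.6 to 26.7 and 16.0 to 20.8 CPM, and in the controls at 12.0 to 12.9, 19.8 to 25.2 and 16.1 to 19.3 CPM. Of the VGLL cofactors, which bind TEAD in place of YAP or TAZ, VGLL3 had 225, 266 and 251 CPM in the KD libraries and 177, 138 and 198 CPM in the controls, without overlap (log2 fold change of 0.53 with SE 0.16, edgeR adjusted p = 0.14). VGLL4 overlapped, VGLL1 had no count in any library, and VGLL2 did not exceed 0.141 CPM.

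CYR61 and CTGF encode secreted proteins of the CCN family that bind integrins and matrix and are the most used readouts of YAP and TAZ. CYR61 (ENSG00000142871, chromosome 1, 85580761 to 85583962, plus strand) had 693, 617 and 557 CPM in KD1 to KD3, against 374, 439 and 444 CPM in the controls. Each KD library exceeded the highest control, by a wider margin than the one between the controls. Its log2 fold change was 0.57 (SE 0.15, interval 0.23 to 0.91, 1.49-fold, edgeR adjusted p = 0.119). It was 0.49 without KD1 and 0.67 without KD3, where it passed (edgeR adjusted p = 0.00112), as did 31.6% of all tested genes. CTGF (ENSG00000118523, chromosome 6, 131948176 to 131951373, minus strand) had 285, 269 and 212 CPM in the KD libraries, against 176, 185 and 182 CPM in the controls. The controls lay close together, and KD3 was the KD library nearest to them. The log2 fold change of CTGF was 0.50 (SE 0.14, interval 0.18 to 0.82, 1.41-fold, edgeR adjusted p = 0.131), with 0.41 without KD1. It was 0.64 without KD3 (edgeR adjusted p = 0.000593), in the fit that called 31.6% of all tested genes.

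The ratio of these genes was similar in both groups, since CYR61 made up 68.6% to 71.4% of their summed level per kilobase in the KD libraries and 66.9% to 70.0% in the controls, with overlap (exact two-sided permutation p = 0.5). Of the other CCN genes, NOV and WISP2 had values on the other side. NOV had 53.9, 61.1 and 43.1 CPM in KD1 to KD3, against 64.6, 67.3 and 84.1 CPM in the controls (log2 fold change of −0.45 with SE 0.17, edgeR adjusted p = 0.193). WISP2, at lower counts, had 1.35, 2.0 and 1.83 CPM against 3.74, 4.12 and 8.46 CPM (log2 fold change of −1.65 with SE 0.39, edgeR adjusted p = 0.105). Neither gene overlapped between the groups, and control3 was the highest library for both. Every KD library lay below every control in 13.3% of all tested genes. WISP1 and WISP3 overlapped between the groups and did not pass the filter on low counts, with at most 0.846 CPM.

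ANKRD1, a target that encodes an ankyrin repeat protein of muscle and stressed cells, did not follow CYR61 and CTGF. ANKRD1 (ENSG00000148677, chromosome 10, 90912096 to 90921276, minus strand) had 95, 141 and 109 counts in KD1 to KD3, or 6.40, 10.1 and 7.68 CPM, against 129, 132 and 201 counts in the controls, or 9.64, 8.76 and 13.1 CPM. KD2 lay within the range of the controls and the other KD libraries below it. With exact 95% Poisson intervals of 5.18 to 7.83 CPM in KD1, 8.48 to 11.9 CPM in KD2 and 6.31 to 9.27 CPM in KD3, counting error alone leaves the upper bound of KD3 above the lowest control. The log2 fold change was −0.38 (SE 0.25, interval −0.95 to 0.18, edgeR adjusted p = 0.398).

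AMOTL2 (ENSG00000114019, chromosome 3, 134355874 to 134375479, minus strand) encodes an angiomotin-family scaffold that binds YAP at junctions. It had 234, 231 and 195 CPM in KD1 to KD3, against 176, 166 and 191 CPM in the controls. KD3 exceeded control3 by a small margin, and KD1 and KD2 by more. The log2 fold change was 0.31 (SE 0.13, interval 0.02 to 0.60, edgeR adjusted p = 0.222), with 0.27 without KD1. It was 0.42 without KD3, where it passed (edgeR adjusted p = 0.0105), as did 31.6% of all tested genes. Its paralog AMOTL1 had 155, 177 and 117 CPM against 116, 86.7 and 94.97 CPM, and AMOT 17.9, 21.1 and 18.3 CPM against 17.3, 10.5 and 13.5 CPM. AMOTL2 made up 65.7% to 70.2% of the summed level per kilobase of the 3 angiomotins in the KD libraries and 68.3% to 74.3% in the controls, with overlap.

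AXL (ENSG00000167601, chromosome 19, 41219203 to 41261766, plus strand) encodes a receptor tyrosine kinase for the ligand GAS6. AXL had 1575, 1559 and 1442 CPM in KD1 to KD3, against 1536, 1357 and 1413 CPM in the controls. KD3 lay among the controls, and the interval of the log2 fold change ran from −0.26 to 0.43 around 0.09 (SE 0.15, edgeR adjusted p = 0.765). Of the summed level per kilobase of the related receptors AXL, TYRO3 and MERTK, AXL took 98.57%, 98.6% and 98.38% in KD1 to KD3. In the controls its share was 98.63%, 98.75% and 98.72%. These shares did not overlap (exact two-sided permutation p = 0.1, the smallest possible). TYRO3 was higher without overlap, at 43.1, 40.9 and 38.5 CPM against 34.4, 29.3 and 29.8 CPM (log2 fold change of 0.39 with SE 0.13, edgeR adjusted p = 0.172). The ligand GAS6 was low at 1.36 to 2.49 CPM against 1.05 to 3.25 CPM. The other ligand, PROS1, had 111 to 129 CPM against 131 to 141 CPM, without overlap (log2 fold change of −0.17 with SE 0.12, edgeR adjusted p = 0.423).

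LATS2 and AJUBA act on the inhibitory arm of the pathway, LATS2 as the kinase and AJUBA as a LIM protein that binds LATS kinases and restrains them. LATS2 (ENSG00000150457, chromosome 13, 20973032 to 21061547, minus strand) had 39.7, 41.4 and 49.8 CPM in KD1 to KD3, against 47.6, 35.5 and 42.8 CPM in the controls. KD3 was the highest of all 6 libraries and control2 the lowest (log2 fold change of 0.06 with SE 0.16, interval −0.30 to 0.41, edgeR adjusted p = 0.864). LATS2 made up 46.8% to 49.7% of the summed level per kilobase of LATS1 and LATS2 in the KD libraries and 48.4% to 52.7% in the controls.

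AJUBA (ENSG00000129474, chromosome 14, 22971174 to 22982642, minus strand) had the lowest fold change of the 10 genes. It was measured at 92.1, 94.99 and 169 CPM in KD1 to KD3, against 183, 196 and 242 CPM in the controls, so that KD1 was at 44.5%, KD2 at 45.9% and KD3 at 81.5% of the control mean. KD3 lay nearer to the lowest control than to the other KD libraries. The log2 fold change was −0.80 (SE 0.24, interval −1.36 to −0.25, edgeR adjusted p = 0.145), with −0.65 without KD1. It was −1.12 without KD3 (edgeR adjusted p = 4.37e-05), in the fit that called 31.6% of all tested genes. AJUBA made up 77.6%, 76.2% and 86.6% of the summed level per kilobase of AJUBA, LIMD1 and WTIP in KD1 to KD3, against 90.0%, 92.2% and 91.9% in the controls, without overlap (exact two-sided permutation p = 0.1, the smallest possible). LIMD1, which shares the LIM domains of AJUBA, had values on the other side, at 49.9, 56.3 and 46.4 CPM against 37.9, 26.5 and 36.3 CPM (log2 fold change of 0.60 with SE 0.17, edgeR adjusted p = 0.13).

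**Figure D3:**
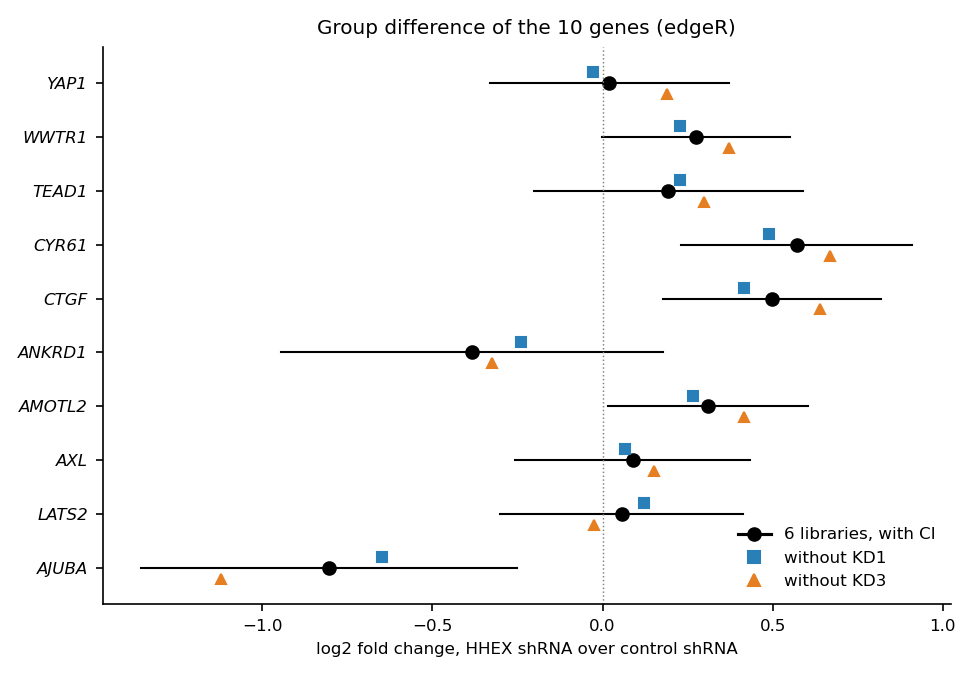
Log2 fold change of each of the 10 genes, HHEX shRNA over control shRNA, from edgeR over all 6 libraries with its 95% confidence interval (black), and the same value without KD1 (blue squares) and without KD3 (orange triangles). The intervals of CYR61, CTGF, AMOTL2 and AJUBA leave out 0 before adjustment for the number of genes, and AJUBA moves farthest, to −1.12, without KD3.

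Taken library by library, 6 of the 10 genes lay above every control in KD1, 7 in KD2 and 5 in KD3, where 34.1%, 34.4% and 29.9% of all tested genes did. Below every control lay 2 of the 10 genes in KD1 (ANKRD1 and AJUBA), 1 in KD2 (AJUBA) and 3 in KD3 (ANKRD1, AJUBA and YAP1), where 37.0%, 37.6% and 31.6% of all tested genes did. KD1 and KD2 are alike across genes, so their counts are not separate evidence. Without KD3, edgeR called 4 of the 10 genes higher and 1 lower, beside 16.5% and 15.1% of all tested genes. Without KD1 edgeR called 0 of the 10 genes, 3 had an unadjusted p under 0.05, and 0 genes were called in all. In that fit 1789 of the 14789 tested genes had an unadjusted p under 0.05. The mitosis list ran with KD1 and KD2 as well. Its 9 genes, such as MKI67, summed to 3092, 3401 and 936 CPM in KD1 to KD3, against 1170 to 1529 CPM in the controls, and the part of this difference in the values above was not tested.

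The wider pathway was described with lists of genes. Among 15 tested genes of 16 in a published signature of direct targets (the others than those above), 10 had a positive and 5 a negative log2 fold change. A positive one was found for 48.6% of all tested genes. The median of the 15 genes was 0.29, where the median of all tested genes was −0.01. The median was 0.18 without KD2, 0.21 without control2 and 0.41 without control1. By edgeR's adjusted p 0 of the 15 passed, and 5 were higher at an unadjusted p under 0.05, as 10.4% of all tested genes were. PTPN14, a phosphatase that binds YAP, had 94.8, 112 and 88.9 CPM in KD1 to KD3 against 73.4, 49.7 and 65.6 CPM (log2 fold change of 0.65 with SE 0.17, edgeR adjusted p = 0.119). NT5E, an enzyme of the cell surface that makes adenosine, had 1159, 1189 and 703 CPM against 655, 603 and 525 CPM (0.77, SE 0.22, edgeR adjusted p = 0.131). F3, which encodes tissue factor, had 423, 416 and 353 CPM against 255, 280 and 319 CPM. RBMS3, an RNA-binding protein, had 65.7 to 66.6 CPM against 46.5 to 55.1 CPM. In these 4 genes every KD library was above every control, beside 11.6% of all tested genes. The secreted protein CCDC80 followed the division among the KD libraries, with 45.7 and 46.1 CPM in KD1 and KD2 and 15.6 CPM in KD3, against 15.5 to 16.5 CPM in the controls. ARHGEF17 was on the other side without overlap, at 34.6 to 39.0 CPM against 42.5 to 43.9 CPM (−0.27, SE 0.12, edgeR adjusted p = 0.261). Of all tested genes 13.3% had every KD library below every control. FOXF2 did not pass the filter.

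Of 10 further genes described as targets, all were tested, 8 had a positive log2 fold change and the median was 0.26, with 0.12 without KD1 and 0.41 without KD3. By edgeR's adjusted p 0 passed, while 4 were higher and 1 lower at an unadjusted p under 0.05. Of all tested genes 48.6% had a positive log2 fold change, and 10.4% were higher and 10.2% lower at an unadjusted p under 0.05. In 4 of the 10 every KD library was above every control and in 1 below, beside 11.6% and 13.3% of all tested genes. EDN1, the precursor of an endothelin, had 22.2, 23.0 and 15.01 CPM in KD1 to KD3 against 10.8, 10.4 and 11.4 CPM in the controls (log2 fold change of 0.88 with SE 0.20, edgeR adjusted p = 0.105). THBS1, the matrix protein thrombospondin, had 425 and 462 CPM in KD1 and KD2 and 148 CPM in KD3, against 135, 116 and 140 CPM in the controls. AREG, a ligand of the EGF receptor, was lower without overlap, at 21.0, 16.7 and 48.4 CPM against 59.7, 87.4 and 52.1 CPM (−1.21, SE 0.41, edgeR adjusted p = 0.177). DLC1 had 205, 216 and 171 CPM against 158, 140 and 148 CPM, and TGM2 overlapped between the groups.

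**Figure D4:**
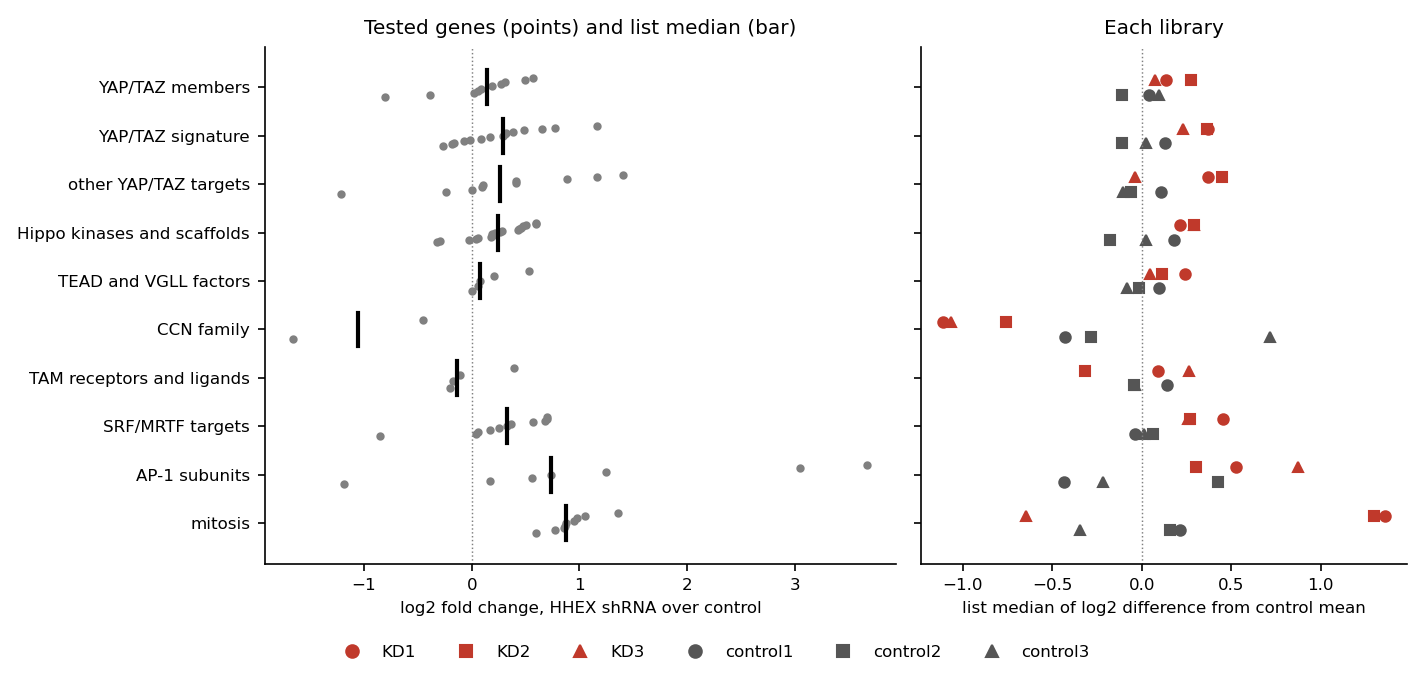
Left, log2 fold change (HHEX shRNA over control) of each tested gene of 10 lists as points, with the list median as a bar. Right, the list median of the log2 difference in each library, for the 3 KD libraries (red) from the mean of the 3 controls. Each control (grey) is set against the mean of the other controls. The mitosis list separates KD1 and KD2, at 1.36 and 1.3, from KD3, at −0.65.

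All 18 upstream kinases, adaptors and scaffolds were tested, with 15 positive and 3 negative log2 fold changes and a median of 0.24. By edgeR's adjusted p 0 passed and 6 had an unadjusted p under 0.05, each of them higher. In 8 of the 18 every KD library was above every control. Over all tested genes 48.6% had a positive log2 fold change, and 10.4% were higher at an unadjusted p under 0.05. In 11.6% of all tested genes every KD library was above every control. WWC1 (KIBRA), a scaffold that brings LATS to its activators, had 90.5, 88.1 and 101 CPM in KD1 to KD3 against 68.8, 62.6 and 74.9 CPM (log2 fold change of 0.44 with SE 0.13, edgeR adjusted p = 0.131). FRMD6, a FERM-domain protein upstream of the kinases, had 89.6, 91.7 and 132 CPM against 81.5, 71.0 and 76.1 CPM. The kinase TAOK1 overlapped between the groups, and the MST2 gene STK3 had 91.7, 97.3 and 100.5 CPM against 78.1, 85.1 and 74.7 CPM. STK4 and LATS1 overlapped, at 208 to 267 CPM against 201 to 258 CPM and at 63.5 to 78.0 CPM against 58.8 to 71.7 CPM. NF2, the merlin gene, had 26.6 to 30.4 CPM against 30.3 to 37.2 CPM (−0.30, SE 0.14, edgeR adjusted p = 0.282).

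Serum response factor with its MRTF coactivators and AP-1 share targets with YAP and TAZ. Of 14 SRF/MRTF targets 11 were tested, 10 had a positive log2 fold change and the median was 0.33. Of these, 0 passed edgeR's adjusted p and 5 were higher at an unadjusted p under 0.05. Over all tested genes 48.6% had a positive log2 fold change and 10.4% were higher at an unadjusted p under 0.05. In 5 of the 11 every KD library was above every control, beside 11.6% of all tested genes. VCL, the vinculin of focal adhesions, had 295, 321 and 226 CPM in KD1 to KD3 against 199, 163 and 158 CPM (0.70, SE 0.17, edgeR adjusted p = 0.107). ACTG1, a cytoplasmic actin, had 4218, 3946 and 5355 CPM against 2800, 2713 and 2839 CPM (0.69, SE 0.19, edgeR adjusted p = 0.126). FLNA and SRF also did not overlap, at 1794 to 2237 CPM against 1126 to 1553 CPM and at 81.6 to 93.5 CPM against 66.1 to 70.2 CPM, while ACTB and TPM1 did. The smooth muscle genes ACTA2, ACTG2 and CNN1 did not pass the filter.

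Of 7 AP-1 subunits, all tested, 6 had a positive log2 fold change, beside 48.6% of all tested genes. While 0 passed edgeR's adjusted p, 5 were higher and 1 lower at an unadjusted p under 0.05. Among all tested genes 10.4% were higher and 10.2% lower at an unadjusted p under 0.05. FOSL1 had 415, 394 and 278 CPM in KD1 to KD3 against 166, 169 and 124 CPM (1.25, SE 0.19, edgeR adjusted p = 0.0518), and FOSL2 140, 147 and 126 CPM against 99.1, 86.6 and 94.8 CPM. JUN had 82.9 and 82.5 CPM in KD1 and KD2 and 165 CPM in KD3, against 53.3, 79.3 and 65.4 CPM in the controls. FOS and FOSB were high in KD3 alone, at 175 and 57.2 CPM there, against 5.93 to 6.94 CPM and 2.50 to 3.71 CPM in the other KD libraries and 3.44 to 5.84 CPM and 1.95 to 3.59 CPM in the controls. JUND was lower at 3.21 to 6.20 CPM against 6.95 to 16.7 CPM. Of transcripts that mark RNA handling, NEAT1 had 426, 462 and 502 CPM in the KD libraries against 551, 1031 and 1115 CPM in the controls, and MALAT1 overlapped. The part of these in the values above was not tested.

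Genes with the most similar pattern were sought by the root mean square difference of log2 CPM, centred on the control mean, over the 6 libraries among genes of at least 20 CPM. For CYR61 the nearest was SRSF3, a splicing factor (0.0558, where the median gene stood at 0.43), and for CTGF it was UBE2N, a ubiquitin-conjugating enzyme (0.0443, median 0.383). For AMOTL2 it was CUL2 (0.029), for WWTR1 TSN (0.0113), for TEAD1 DCAF1 (0.0481), for YAP1 NUMA1 (0.0396) and for AXL TMEM127 (0.0199). For LATS2 it was KIAA0040 (0.0306), for ANKRD1 DPY19L3 (0.127) and for AJUBA ALDH3B1, an aldehyde dehydrogenase (0.0392, median 0.731). Of the 30 genes named as the 3 nearest to each, 0 were among the 10 genes or any list above. These distances are a description.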

How the data were processed

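RNA was captured and made into libraries with TIANSeq kits, per the labels' protocols. No source used here names the aligner, the counter, the build or whether strand was used. The authors deposited raw counts per gene and library, which were used, and 6 further columns of values per library, which were not. Column names give a library's group but not its replicate label. Start and end of 58672 of 58735 named genes, and of all 10 genes here, equal GENCODE 29 (GRCh38). A further 998 rows without a gene name (0.239% to 0.298% of counts) stayed out of totals and tests. Overlapping annotated genes took at most 0.154% of the counts of any of the 10 genes.

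Counts were analysed with edgeR 4.0.16 (R 4.3.3): filterByExpr by group, TMM, robust glmQLFit and glmQLFTest over all 6 libraries, with Benjamini-Hochberg adjustment over 14280 genes and a threshold of 0.05. The standard error is the fold change over the root of its F statistic. Levels per kilobase used the summed length of merged GENCODE 29 exons. Log2 CPM used a prior count of 2, and 3 counts lie at 0.195 to 0.224 CPM. The fit was tested on simulated counts. Alternatives were RLE, upper-quartile and no scaling, other filters, DESeq2 1.42.0, no robust estimation, a replicate block and each library left out. Libraries of a group may share a culture, and p-values then measure technical spread. Poisson intervals cover counting error only. Genes and lists were chosen with earlier results of these data known. Named were HHEX, the 10 genes, the paralogs and cofactors, and up to 6 genes per list with the smallest p. Some listed genes are not reported here. Outside this rule CDH1, AMOT, STK4, LATS1, NF2 and the genes under the filter were chosen after their values were seen.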

Additional observations from a re-analysis of the deposited data

How the results depend on the processing

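The number of genes past the threshold was 26 with all 6 libraries and 0 of the 10 genes were among them. It was 1359 without a low-count filter and 862 by DESeq2, with CYR61, CTGF and AJUBA called in both (3 of the 10 genes). Of all genes 2.56% were called higher and 2.24% lower without a filter, and 3.31% higher and 2.98% lower by DESeq2. For CYR61, CTGF and AJUBA the adjusted p was 0.0166, 0.0432 and 0.000109 without a filter and 0.0108, 0.0412 and 0.0401 by DESeq2. Leaving out each library gave 0 to 4675 genes and 0 to 5 of the 10, with the 5 called without KD3 alone. The number of genes was 0 without KD1, KD2, control2 or control3 and 1 without control1. Without KD3 it was 4675, or 31.6% of the genes tested there. The cause was not tested. The other scalings, the 1 CPM filter and the fit without robust estimation gave 22 to 37 genes and 0 of the 10. Calls were 57.7% higher ones, and 42.9% with upper-quartile and 40.5% with no scaling. Signs turned for LATS2 with upper-quartile scaling (−0.0044), without KD3 (−0.0246) and without control2 (−0.0343), and for YAP1 with upper-quartile scaling (−0.044), no scaling (−0.0216), without KD1 (−0.0269) and without KD2 (−0.0852). Leaving out each library gave log2 fold changes of −0.0343 to 0.1821 for LATS2 and −0.0852 to 0.1905 for YAP1. The other 8 genes kept their sign in all 14 alternatives, but TEAD1 (0.1925) was 0.0771 without KD2, 0.0797 without control2 and 0.2977 without KD3, ANKRD1 (−0.3836) was −0.2402 without KD1 and −0.1937 without control3, and AXL (0.0881) was 0.1511 without KD3 and 0.1668 without control1. A replicate block by column number called 30 genes and 0 of the 10. These numbers are not those of the labels, and same-numbered libraries deviated at r = −0.0469, −0.0693 and 0.123, so they were not taken as pairs.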
